A study of Mus musculus with 64 samples.

Results

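Transcripts of Atf4 and 9 genes that it is known to act on or to act with were measured in mouse gastrocnemius, a mixed calf muscle. The 10 genes were taken as a list by name. They comprised the stress genes Atf4, Ddit3, Chac1, and Trib3, the amino acid synthesis genes Asns, Aldh18a1, Phgdh, and Psat1, and the mitochondrial folate genes Shmt2 and Mthfd2. They are 10 of the 55401 identifiers in the count table, and all 10 were among the 15241 genes that passed the filter on low counts. The study compared skeletal muscle HIF1α KO mice (Hsa-cre;Hif1α fl/fl) with fl/fl littermates without the Cre. Every mouse therefore carried the floxed Hif1α allele, and Cre was driven by the human α-skeletal actin promoter, which is active in muscle fibers. Mice were 12 to 18 weeks old on a C57BL/6JBomTac background. They ran on a treadmill for 60 min, at 16 m/min and an incline of 5% per the labels, or stayed sedentary. This took place at ZT3, in the light phase, or at ZT15, in the dark phase, and tissue was taken 3 h afterwards. Genotype, treatment, and time of day gave 8 groups of 8 mice, with 4 males and 4 females in a group.

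ATF4 is a transcription factor of the bZIP family and the main effector of the integrated stress response. Kinases that sense amino acid shortage, unfolded proteins in the endoplasmic reticulum, heme loss, or viral RNA phosphorylate the initiation factor eIF2α, which lowers general translation while ATF4 mRNA is translated more. ATF4 then activates genes of amino acid synthesis, amino acid uptake, tRNA charging, and one-carbon metabolism, often together with C/EBP partners such as the product of Ddit3, known as CHOP. In skeletal muscle this program is known from mitochondrial disease, starvation, and aging. The level of Atf4 mRNA is not a measure of ATF4 protein, because ATF4 is mainly controlled in translation.

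Of the 64 libraries, 1 held 382 counts, none of them on the 10 genes, and was left out (mouse 44, HIF1α KO, exercised at ZT3). The other 63 held between 2359780 and 40377963 counts. Muscle fiber markers (8 of 8 tested) summed to between 69010 and 137200 CPM, the count divided by the TMM-scaled library size in M, in every library, and none of the markers of muscle, blood, immune cells, fat, vessels, fibroblasts, nerve, tendon, or satellite cells was at 0 throughout. Xist and Ddx3y separated the sexes as labelled. Hif1α counts were not used here to check the genotype, because they cover the whole gene and only exon 2 is floxed. The study itself reported fewer Hif1α transcripts in quadriceps muscle of HIF1α KO mice. The labels number the mice through all groups, and the share of mitochondrial rRNA differed between the 4 consecutive blocks of 16 numbers (medians of 1.84% to 6.55%), so medians within these blocks are given beside the genes that passed or lay close to the threshold. In bulk tissue, fewer cells of a type and less RNA per cell cannot be told apart.

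The promoters of the 10 genes were searched for the letters that ATF4 dimers with C/EBP factors are known to bind, TGATGNAA, on both strands. The windows, 250 bases before to 50 bases after each gene start, are from RefSeq (GRCm38.p6), where all 10 genes matched, with 11 windows. The letters were in 3 of the 11 windows, those of Chac1, Trib3, and Asns, against 3.97% of all 32851 windows. Each of the 3 is shown because it marks a member by sequence and not by expression. Sequences read 5′ to 3′ on the strand of the gene, and capitals mark the match, which lies on the opposite strand in Chac1 and Trib3.
Chac1 (chr2:119351029-119351076, + strand): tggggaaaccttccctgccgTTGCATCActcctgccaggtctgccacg
Trib3 (chr2:152344028-152344057, - strand): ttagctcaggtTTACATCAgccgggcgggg
Asns (chr6:7693210-7693252, - strand): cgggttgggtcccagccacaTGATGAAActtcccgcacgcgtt
The match began 193 bases before the RefSeq gene start in Chac1, 23 bases before it in Asns, and 14 bases after it in Trib3. Starts differ in the GENCODE annotation, which gave the gene coordinates below. There the Trib3 match lies before the start (152344032) and the Asns match after it (7693254), both on the - strand. A search for the E-box CACGTG, the letters known from clock and MYC factors, matched 1 of the 11 windows, against 7.15% of all windows. With 11 windows, 1 match is near that share. It is shown as the only match, and the 2 motifs did not overlap. Chac1 had no E-box in its window. A link of the E-box to the time-of-day results below was not tested.
Aldh18a1 (chr19:40588497-40588542, - strand): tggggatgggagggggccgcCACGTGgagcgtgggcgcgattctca
These matches describe the letters in these windows and were not tested for binding.

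The 10 genes differed widely in level. Per kilobase of exon, Atf4 (ENSMUSG00000042406.8, chromosome 15 from 80255184 to 80257541) had the highest median, 54.4 CPM per kb, with a range over the 63 libraries of 39.9 to 73.4. Chac1 (ENSMUSG00000027313.3, chromosome 2 from 119351229 to 119354381), whose product degrades glutathione, followed with a median of 12.5 and a range of 2.40 to 43.02 CPM per kb. Ddit3 (chromosome 10 from 127290774 to 127296288) had a median of 4.66 CPM per kb and Shmt2 (chromosome 10 from 127517123 to 127522444), the mitochondrial serine hydroxymethyltransferase, one of 3.25. Ddit3 ranged from 2.51 to 8.82 and Shmt2 from 1.57 to 5.86 CPM per kb, so these 2 ranges overlapped each other and that of Chac1. The highest value of Chac1 also lay above the lowest of Atf4. The medians of the other 6 lay below 1 CPM per kb: Aldh18a1 at 0.986, Asns at 0.777, Mthfd2 at 0.760, Phgdh at 0.684, Psat1 at 0.508, and Trib3 at 0.248, with overlapping ranges between neighbors. Muscle thus held abundant Atf4 transcripts and few of most synthesis enzymes. Trib3, a pseudokinase that ATF4 activates, had a median of 8 counts in a library and 0 counts in 3 libraries, where a count of 0 allows up to 0.307 to 0.536 CPM. Phgdh, the first enzyme of serine synthesis, had 0 counts in 1 library. The precision for Trib3, Phgdh, Asns, and Psat1 was set by medians of 8 to 34 counts in a library, and these limits cover counting error only. All coordinates are on GRCm38. The counts of Ddit3, Psat1, Aldh18a1, Mthfd2, and Shmt2 are less certain, because each overlaps another annotated gene. For Ddit3, Psat1, and Shmt2 such a gene lies on the other strand (Ndufa4l2 in the case of Shmt2). The strand setting of the counting is not given in the sources used here. For Aldh18a1 and Mthfd2 the overlapping gene is on the same strand, which a strand setting does not separate.

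Spread between libraries also separated Chac1 from the rest. The SD of log2 CPM over the 63 libraries was 1.08 for Chac1 and 0.213 for Atf4, and between 0.363 and 0.812 for the other 8. Group medians of Chac1 ran from 9.55 CPM in exercised HIF1α KO mice at ZT15 to 58.2 CPM in sedentary fl/fl mice at ZT3, a ratio of 6.10. For the other 9 genes the ratio of the highest to the lowest group median was between 1.21 (Atf4) and 1.70 (Psat1).

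**Figure D1:**
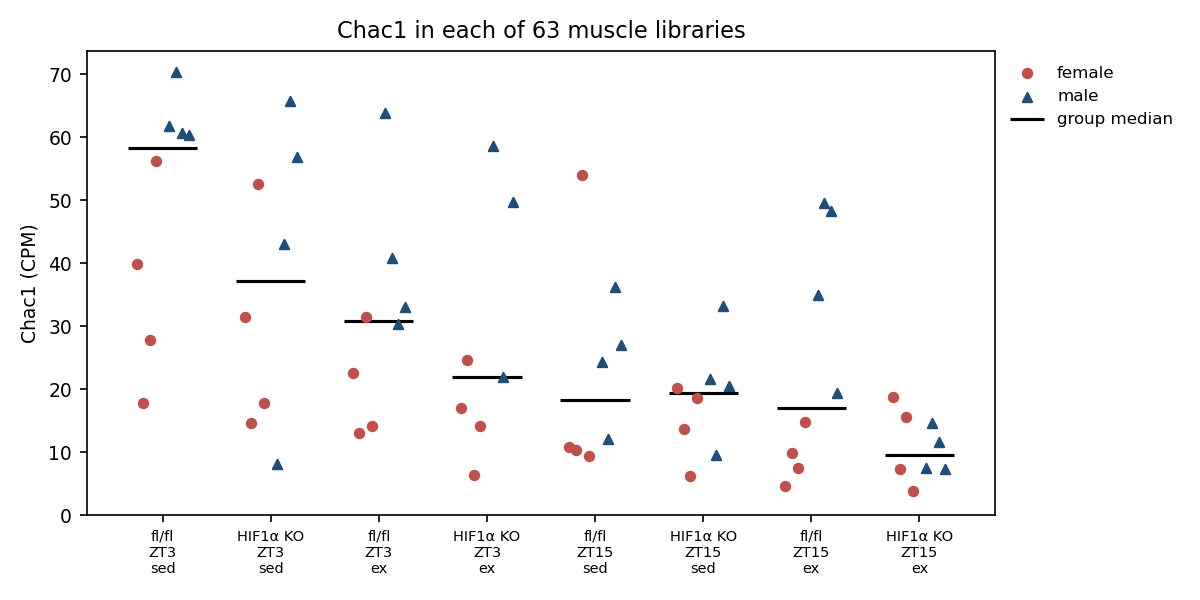
Chac1 in CPM on TMM-scaled libraries (y axis, linear) for each mouse of the 8 groups (x axis, 7 or 8 mice in a group), with females as circles, males as triangles, and the group median as a line. Group medians fall from 58.2 CPM in sedentary fl/fl mice at ZT3 to 9.55 CPM in exercised HIF1α KO mice at ZT15, and single mice range from 3.93 to 70.4 CPM.

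The first question was whether loss of HIF1α in muscle fibers altered this program. On average over treatments and times of day, 1 of the 10 transcripts, higher in HIF1α KO mice, passed an adjusted p under 0.1 (edgeR's quasi-likelihood test, with sex in the model). Of all genes tested, 8.26% passed in either direction, and 4.68% passed and were higher. That gene was Atf4. Atf4 ranged from 105.7 to 173.0 CPM with a median of 133.6 in 31 HIF1α KO mice, and from 94.1 to 156.7 CPM with a median of 127.0 in 32 fl/fl mice. The 2 ranges overlapped over most of their width. The log2 fold change was 0.15 (SE 0.0441 and adjusted p = 0.0357), which is 1.11-fold. None of the other 9 genes passed, and the list had a median log2 fold change of −0.02, against −0.003 for all genes.

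Atf4 was then compared group by group. In sedentary mice, HIF1α KO and fl/fl medians were 127.9 and 126.6 CPM at ZT3 and 127.6 and 118.5 CPM at ZT15. In exercised mice they were 129.2 and 120.9 CPM at ZT3, and 142.7 and 143.0 CPM at ZT15. The HIF1α KO median was thus higher in 3 of 4 pairs of groups, and all 4 pairs overlapped. Single log2 fold changes were 0.15, 0.19, 0.23, and 0.03 in the same order, with SEs of 0.0872, 0.0877, 0.0905, and 0.0873, and none passed (edgeR). By the order of the mouse numbers, the HIF1α KO and fl/fl medians of Atf4 were 121.6 and 123.3, 153.6 and 137.5, 158.5 and 129.5, and 129.2 and 116.4 CPM in the 4 blocks, so 3 of 4 blocks had the direction of the average. Genotypes were not balanced over the blocks, and block 2 held 10 HIF1α KO and 6 fl/fl mice. With the block in the model, the average log2 fold change was 0.12 (edgeR adjusted p = 0.0559).

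**Figure D2:**
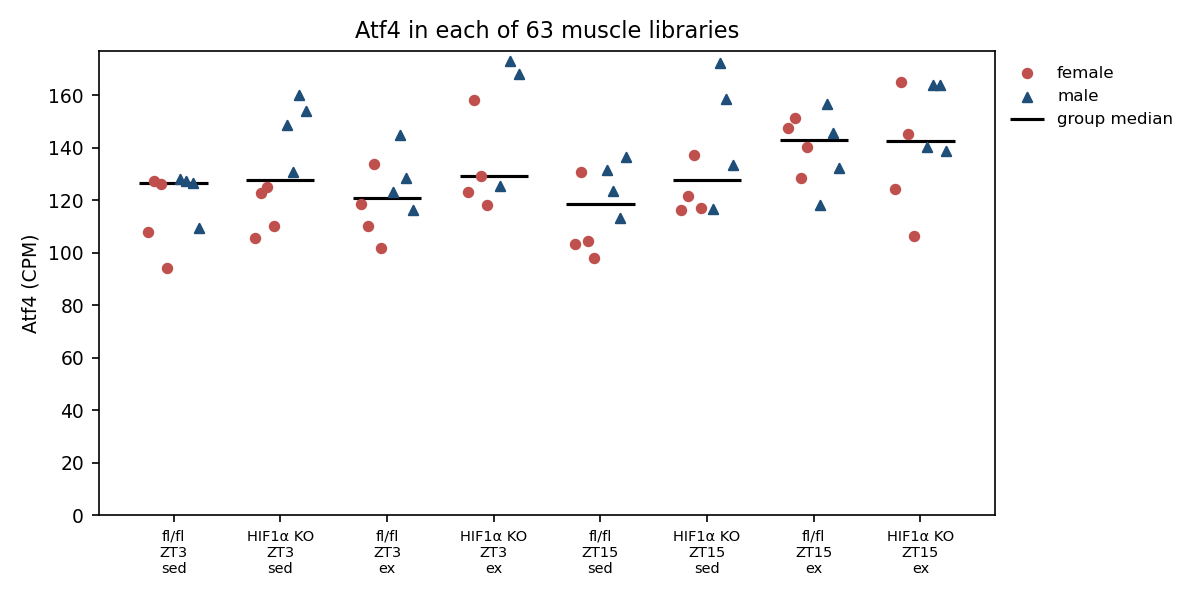
Atf4 in CPM on TMM-scaled libraries (y axis, linear, from 0) for each mouse of the 8 groups (x axis), with females as circles, males as triangles, and the group median as a line. All 63 mice lie between 94.1 and 173.0 CPM, and the groups overlap.

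Differences within each sex were then taken from a single model of all 63 libraries with a sex term in each group. This model was added after the data had been seen, and both sexes share its estimate of the spread. In males, Atf4 had a median of 153.9 CPM (116.8 to 173.0, n = 15) in HIF1α KO and 127.8 CPM (109.3 to 156.7, n = 16) in fl/fl mice. In females the medians were 122.9 CPM (105.7 to 165.0, n = 16) and 122.4 CPM (94.1 to 151.2, n = 16). The log2 fold change was 0.22 in males (SE 0.0636 and edgeR adjusted p = 0.0310) and 0.08 in females (SE 0.0625 and adjusted p = 0.901). The difference between the sexes, 0.14 (SE 0.0892), did not pass (adjusted p = 0.525), so the sexes were not shown to differ. Of the 10 genes, 1 passed in males, 0 in females, and 0 for the difference, where 13.1%, 0.873%, and 0.0394% of all genes did. At an unadjusted p under 0.05 there were 3, 1, and 0 of the 10.

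The remaining 9 genes did not pass between genotypes. Chac1 had a median of 17.8 CPM (3.93 to 65.7) in HIF1α KO and 29.1 CPM (4.73 to 70.4) in fl/fl mice. Its log2 fold change was −0.47 (SE 0.201 and adjusted p = 0.166 from edgeR), with a 95% interval of −0.88 to −0.07, and without exercised HIF1α KO mouse 9 at ZT15 it passed (adjusted p = 0.0933). The median of HIF1α KO mice was lower in 3 of 4 pairs of groups, but within the blocks of mouse numbers it was lower in blocks 1 and 4, near equal in block 2 (14.7 against 14.3 CPM), and higher in block 3 (49.8 against 23.7 CPM). Psat1, the aminotransferase of serine synthesis, had the lower median in HIF1α KO mice in 4 of 4 pairs, with a log2 fold change of −0.21 (SE 0.117 and adjusted p = 0.307). Without exercised HIF1α KO mouse 59 at ZT15, its highest library, it passed (adjusted p = 0.0822). Aldh18a1, which makes a proline precursor from glutamate, also had it in 4 of 4 pairs, with −0.16 (SE 0.0983 and adjusted p = 0.372). Ddit3 was at 0.14 (SE 0.0837 and adjusted p = 0.356). The other 5 had log2 fold changes between −0.10 (Asns, asparagine synthetase) and 0.06 (Shmt2), with 95% intervals that reached no further than −0.36 and 0.37, both of them those of Trib3.

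In each of the 4 genotype comparisons taken alone, 0 of the 10 genes passed in edgeR and 0 in DESeq2. The share of all genes that passed in edgeR was 0.400% in sedentary mice at ZT3, 1.43% in exercised mice at ZT3, 0.0459% in sedentary mice at ZT15, and 0.400% in exercised mice at ZT15. At an unadjusted p under 0.05 there were 0, 1 (Atf4), 1 (Atf4), and 1 (Chac1) of the 10. Of 3 markers of nerve and Schwann cells, 1 (Mbp) was lower in HIF1α KO mice, and their summed level was 18.05 to 71.6 CPM (median 29.05) in HIF1α KO and 18.7 to 82.0 CPM (median 36.65) in fl/fl mice. Of 4 fibroblast markers, 1 (Pdgfra) was lower, with a summed level of 836.1 to 1986 CPM (median 1285) in HIF1α KO and 941.6 to 2773 CPM (median 1465) in fl/fl mice. Of 3 tendon markers 1 (Scx) was higher, while their median log2 fold change was −0.20 and their summed level had medians of 198.0 CPM (60.84 to 431.3) and 205.5 CPM (63.57 to 540.0). Of 3 satellite cell markers 1 (Myf5) was higher, with summed medians of 7.49 CPM (5.60 to 10.68) and 7.42 CPM (4.24 to 11.74). No marker of muscle fibers, blood, immune cells, fat, or endothelium passed between genotypes (edgeR). The part of these cell types in the Atf4 result was not tested.

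**Figure D3:**
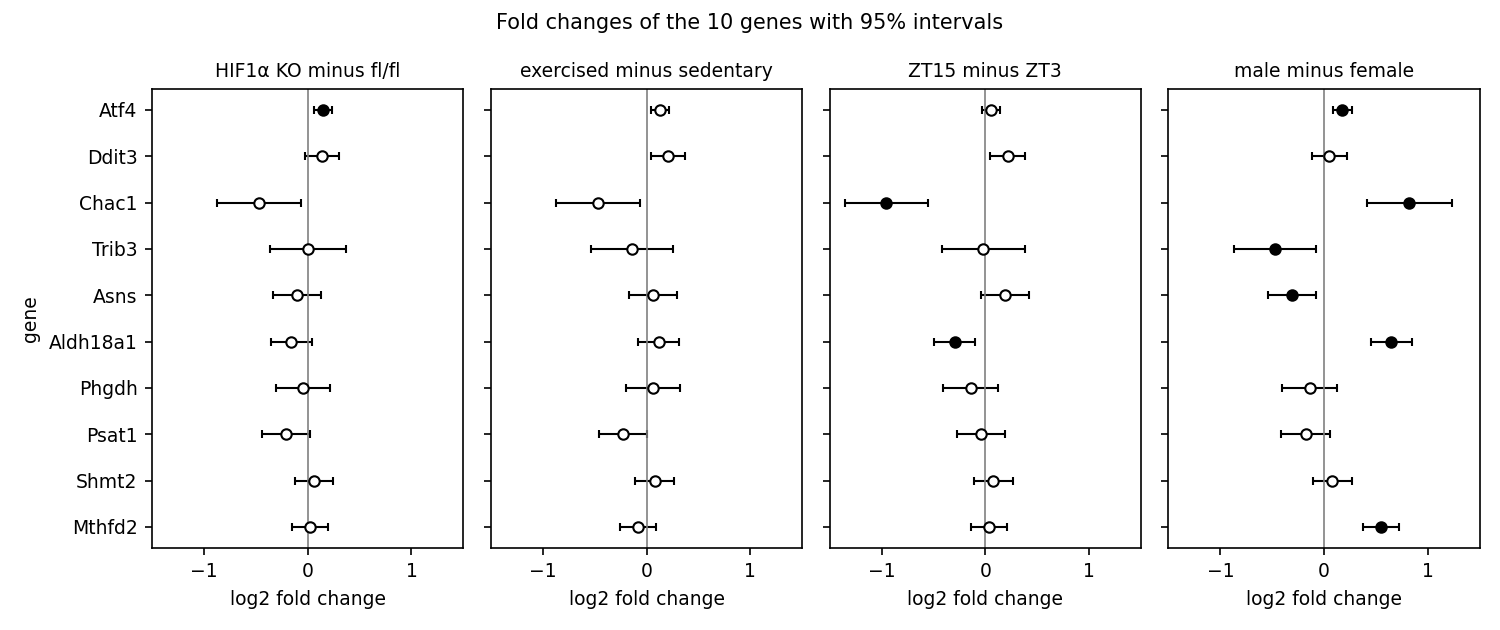
Log2 fold changes of the 10 genes (x axis) from edgeR's quasi-likelihood fit over 63 libraries, one panel for each comparison, with bars for 95% confidence intervals and filled points for an adjusted p under 0.1. Filled points number 1 for HIF1α KO against fl/fl, 0 for exercised against sedentary, 2 for ZT15 against ZT3, and 6 for male against female.

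The second question was the response to the treadmill run 3 h after it. Averaged over genotypes and times, 0 of the 10 transcripts passed in edgeR, against 2.84% of all genes, and 3 had an unadjusted p under 0.05 (Atf4, Ddit3, and Chac1). DESeq2 called 1, Atf4. Atf4 ranged from 102.0 to 173.0 CPM (median 133.7) in 31 exercised mice and from 94.1 to 172.4 CPM (median 125.7) in 32 sedentary mice. The log2 fold change was 0.13 (SE 0.0441 and adjusted p = 0.132). Atf4 lay close to the threshold, and it passed with the mouse-number block in the model (adjusted p = 0.0362), with the mitochondrial rRNA share in the model (0.0287), with at least 10 counts required in every library (0.0744), and in DESeq2 (0.0983). It also passed in 7 of the 63 fits that left out 1 library, from 0.0734 without exercised fl/fl mouse 10 at ZT15 to 0.0993 without sedentary fl/fl mouse 38 at ZT3. The highest adjusted p of these 63 fits was 0.201, without exercised HIF1α KO mouse 28 at ZT3. Atf4 did not pass in the other alternatives, from RLE size factors (0.136) to no filter on low counts (0.2995). The exercised median was higher in 3 of 4 pairs of groups and lower in fl/fl mice at ZT3 (120.9 against 126.6 CPM). Within the 4 blocks of mouse numbers, the medians of Atf4 in exercised and sedentary mice were 123.2 and 119.2, 157.6 and 129.0, 133.7 and 128.5, and 128.9 and 109.8 CPM, so exercised mice had the higher median in 4 of 4 blocks.

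Ddit3, which encodes the bZIP factor CHOP, had medians of 8.33 CPM (4.31 to 15.1) in exercised and 7.45 CPM (4.99 to 11.5) in sedentary mice. Its log2 fold change was 0.21 (SE 0.0837 and edgeR adjusted p = 0.273). Chac1 lay in the other direction, with medians of 17.02 CPM (3.93 to 63.9) and 25.6 CPM (6.30 to 70.4) and a log2 fold change of −0.47 (SE 0.201 and adjusted p = 0.329). In each of the 4 pairs of groups, exercised mice had the lower median of Chac1. Within the blocks of mouse numbers the median of Chac1 was lower in exercised mice in 3 of 4 and higher in block 2 (18.36 against 12.77 CPM), and that of Ddit3 was higher in 3 of 4 and lower in block 3 (7.52 against 7.80 CPM). Psat1 had the lower median in exercised mice in 4 of 4 pairs as well (−0.23, SE 0.117 and adjusted p = 0.478). Atf4 and Ddit3 on one side and Chac1 on the other thus had opposite signs, and none of the 3 passed. The other 6 genes had log2 fold changes from −0.14 (Trib3) to 0.12 (Aldh18a1).

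In single combinations, 0 of the 10 genes passed in edgeR or in DESeq2, with 0.236%, 0%, 0.131%, and 0.0591% of all genes called in edgeR in fl/fl mice at ZT3, fl/fl mice at ZT15, HIF1α KO mice at ZT3, and HIF1α KO mice at ZT15. Unadjusted p values under 0.05 were found for Trib3 in fl/fl mice at ZT3 and for Atf4 and Ddit3 in fl/fl mice at ZT15. In the latter, Atf4 had medians of 143.0 CPM in exercised and 118.5 CPM in sedentary mice, with a log2 fold change of 0.26 (SE 0.0876 and adjusted p = 0.427 from edgeR), which did not pass. The interaction of genotype with exercise was −0.04 for Atf4 (95% interval −0.22 to 0.14) and −0.11 for Chac1 (−0.91 to 0.70). For the interactions of genotype with exercise, genotype with time of day, and exercise with time of day, 0 of the 10 genes passed in edgeR and in DESeq2, 0 had an unadjusted p under 0.05, and 0% of all genes passed in edgeR.

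The third factor of the design was time of day, and the largest fold change of the list among the 3 factors was that of Chac1. ZT3 and ZT15 name the time of the run or of the sedentary period, and tissue was taken 3 h afterwards. On average over genotypes and treatments, 2 of the 10 genes passed, both lower at ZT15, against 3.92% of all genes lower and 8.02% in either direction. Chac1 had a median of 14.7 CPM (3.93 to 54) in 32 mice at ZT15 and 31.5 CPM (6.45 to 70.4) in 31 mice at ZT3. The log2 fold change was −0.95 (SE 0.201 and edgeR adjusted p = 0.00104), or 0.517 of the level at ZT3. Libraries overlapped, since single mice at ZT15 reached 54 CPM and single mice at ZT3 went down to 6.45 CPM. The median was lower at ZT15 in 4 of 4 pairs of groups and in 4 of 4 blocks of mouse numbers.

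Within the pairs, the log2 fold change of Chac1 was −1.02 in sedentary fl/fl mice (SE 0.397), −0.53 in exercised fl/fl mice (SE 0.396), −1.07 in sedentary HIF1α KO mice (SE 0.400), and −1.19 in exercised HIF1α KO mice (SE 0.419). None of these 4 passed alone in edgeR (adjusted p from 0.205 to 0.577), where 1.88%, 1.18%, 0.479%, and 0.663% of all genes did, and DESeq2 called none either. The interaction of genotype with time of day was −0.35 for Chac1 (95% interval −1.16 to 0.45). In both sexes the direction was the same, with −1.17 in males (SE 0.272 and adjusted p = 0.0128) and −0.85 in females (SE 0.275 and adjusted p = 0.103), in the fit with a sex term in each group. Leaving out each of the 63 libraries in turn kept Chac1 past the threshold in all 63 fits, with adjusted p from 5.48e-05 to 0.00262.

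Aldh18a1 was the other gene that was lower at ZT15. It had a median of 3.79 CPM (1.19 to 6.66) at ZT15 and 4.11 CPM (2.20 to 9.08) at ZT3, with a log2 fold change of −0.30 (SE 0.0984 and adjusted p = 0.0620). This call depended on the setting. It ended without a sex term (adjusted p = 0.296) and without the 3 libraries under 5 M counts (adjusted p = 0.123). It also ended without sedentary fl/fl mouse 5 at ZT3 (adjusted p = 0.127), sedentary HIF1α KO mouse 29 at ZT15 (0.1002), or exercised HIF1α KO mouse 53 at ZT3 (0.108). Within the blocks of mouse numbers, the median at ZT15 was lower in 3 of 4 and higher in block 2 (3.48 against 3.27 CPM). In females it was 2.67 CPM (1.19 to 4.07) at ZT15 and 3.68 CPM (2.20 to 5.88) at ZT3 (−0.47, SE 0.133 and adjusted p = 0.0397), and in males 4.31 and 5.12 CPM (−0.12, SE 0.126 and adjusted p = 0.749). The difference between the sexes was 0.35 (SE 0.183, unadjusted p = 0.0611, adjusted p = 1.00), so it was not shown. In the fit with a sex term in each group, 1 of the 10 genes passed in females and 1 in males, against 3.14% and 2.36% of all genes.

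Ddit3 lay in the opposite direction, with medians of 8.79 CPM (5.02 to 15.1) at ZT15 and 7.45 CPM (4.31 to 11.9) at ZT3. The median at ZT15 was higher in 4 of 4 pairs of groups, with a log2 fold change of 0.21 (SE 0.0838 and adjusted p = 0.137). With the mouse-number block in the model it passed (adjusted p = 0.0776), as it did in 7 of the 63 fits that left out 1 library (lowest 0.0648, without sedentary fl/fl mouse 5 at ZT3). Its median at ZT15 was higher in 3 of 4 blocks and lower in block 4 (8.54 against 8.65 CPM). Atf4 itself was at 0.05 (SE 0.0441 and adjusted p = 0.566), so Chac1 differed with time of day while the difference in Atf4 mRNA was between −0.03 and 0.14 (95% interval). The remaining 6 genes had log2 fold changes between −0.14 (Phgdh) and 0.19 (Asns), and none passed.

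Sex was a covariate of the design and not a question of the study. It gave the most calls in the list, with 6 of the 10 genes, 4 higher and 2 lower in males, against 25.1% of all genes, 13.3% higher and 11.8% lower. Males had more Aldh18a1, Mthfd2, Chac1, and Atf4, and less Asns and Trib3. Aldh18a1 had a median of 5.05 CPM (2.85 to 9.08) in 31 males and 3.31 CPM (1.19 to 5.88) in 32 females. Its log2 fold change was 0.65 (SE 0.0991 and edgeR adjusted p = 5.19e-07), and the male median was higher in 7 of 8 groups. Mthfd2, the mitochondrial methylenetetrahydrofolate dehydrogenase, had medians of 3.46 CPM (2.30 to 5.11) and 2.22 CPM (1.18 to 3.81). Its log2 fold change was 0.55 (SE 0.0868 and adjusted p = 1.20e-06), with the male median higher in 8 of 8 groups. Both genes had higher medians in males in all 4 blocks of mouse numbers.

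Chac1 had a median of 33.3 CPM (7.42 to 70.4) in males and 15.2 CPM (3.93 to 56.2) in females, a log2 fold change of 0.82 (SE 0.204 and adjusted p = 0.00199). In sedentary fl/fl mice at ZT3 the 4 males lay above the 4 females, while in exercised HIF1α KO mice at ZT15 the male and female libraries were interspersed. The plot of Chac1 by group shows both. Atf4 had medians of 133.6 CPM (109.3 to 173.0) in males and 122.9 CPM (94.1 to 165.0) in females, with a log2 fold change of 0.18 (SE 0.0441 and adjusted p = 0.00202). The male median of Chac1 and of Atf4 was higher in 7 of 8 groups and in 4 of 4 blocks of mouse numbers.

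Asns and Trib3 lay the other way. Asns had medians of 1.93 CPM (1.06 to 3.92) in males and 2.46 CPM (0.713 to 5.15) in females, with a log2 fold change of −0.31 (SE 0.116 and adjusted p = 0.0516). Trib3 had medians of 0.455 CPM (0 to 1.11) and 0.618 CPM (0.106 to 1.65), with −0.47 (SE 0.197 and adjusted p = 0.0841). For each of them the male median was higher in 2 of 8 groups, and it was lower in 4 of 4 blocks of mouse numbers, by little for Trib3 in block 3 (0.255 against 0.275 CPM). At a threshold of 0.05 neither passed, which left 4 of the 10 genes, and without the filter on low counts Trib3 did not pass (adjusted p = 0.138). Trib3 failed in 19 of the 63 fits that left out 1 library (highest adjusted p 0.134, without sedentary fl/fl mouse 62), while Asns, Atf4, Chac1, Aldh18a1, and Mthfd2 passed in all 63. The 3 genes that carry TGATGNAA in the windows printed above thus had different directions, Chac1 higher and Asns and Trib3 lower in males.

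**Figure D4:**
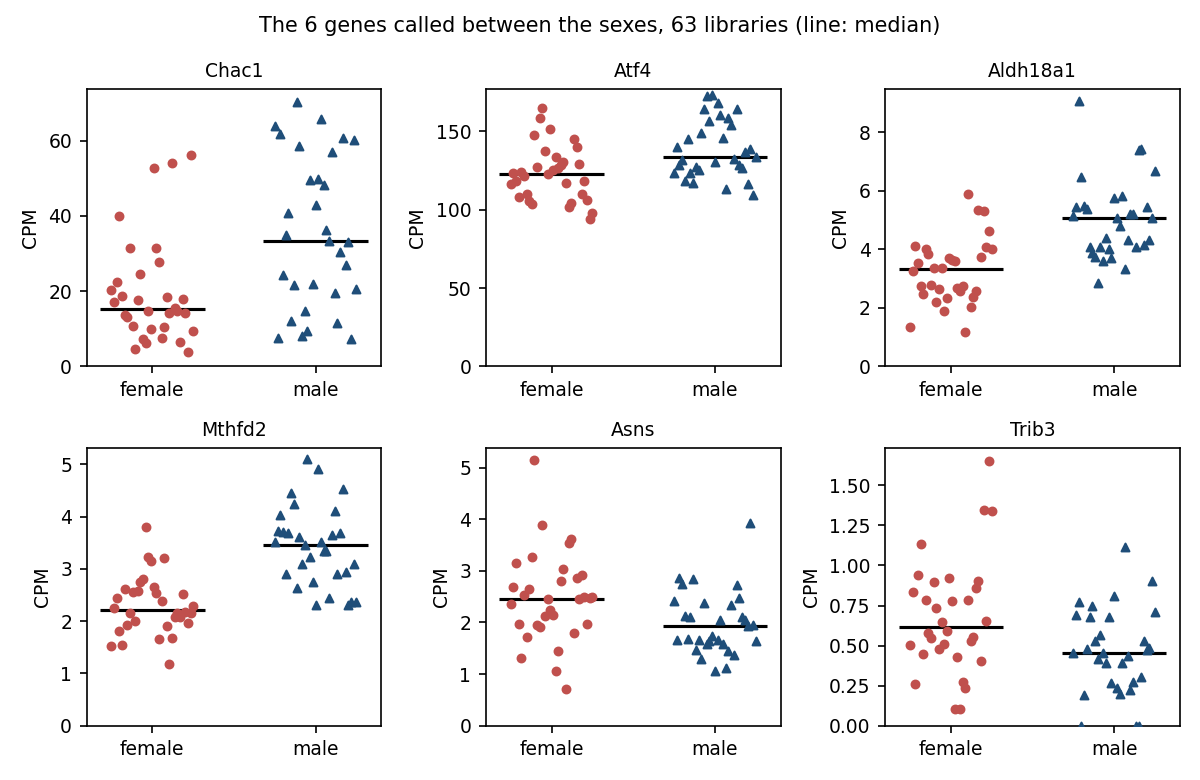
CPM on TMM-scaled libraries (y axes, linear, from 0) of the 6 genes that passed between the sexes, for 32 females (circles) and 31 males (triangles), with the median as a line. Medians are higher in males for Chac1, Atf4, Aldh18a1, and Mthfd2 and lower for Asns and Trib3, and the ranges of the sexes overlap in each panel.

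Other cell types also differed by sex. All 4 adipocyte markers were lower in males (median log2 fold change −0.76), with a summed level of 45.6 to 261.0 CPM (median 95.9) in males and 57 to 359.3 CPM (median 178.0) in females. All 3 nerve and Schwann cell markers were lower in males (18.05 to 64.25 against 18.7 to 82.0 CPM). Of 4 fibroblast markers 2 were lower (summed medians of 1259 CPM in males and 1418 CPM in females), and of 3 tendon markers 1 was lower (175.6 and 239.0 CPM). Of the blood markers 3 of 5 were higher, and of the muscle fiber markers 3 of 8 were higher and 2 lower. Across the 63 libraries, with group and sex removed, the gene whose pattern was most like that of Asns was the adipocyte marker Cfd (r = 0.59). The part of these cell types in the sex differences of Asns, Trib3, and the other members was not tested.

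Values of the 10 genes were then compared between mice. After removal of group and sex, the 45 pairs of genes had a median Pearson's r of −0.03, and r was above 0 in 20. The 2 values of a pair come from the same library and share its depth and composition. By permutation (100000 shuffles, Benjamini-Hochberg over 45 pairs), 7 pairs passed an adjusted p under 0.1, 3 of them positive and 4 negative. The strongest was Psat1 with Phgdh, consecutive enzymes of serine synthesis, at r = 0.69 (adjusted p = 0.00045 by permutation, from the smallest p that the shuffles can give, n = 63) and Spearman's rho = 0.40 (adjusted p = 0.0495 by permutation). Without the 2 libraries farthest from the median it was r = 0.41. Within the 4 blocks of mouse numbers r was 0.39, 0.20, 0.47, and 0.91. The last block held mouse 59, with the highest CPM of both genes (4.25 and 3.87). It also held mouse 50, with the lowest (0.246 and 0).

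Atf4 was correlated with Mthfd2 at r = 0.34 (adjusted p = 0.0894 by permutation, n = 63) and rho = 0.33 (adjusted p = 0.119 by permutation), 0.34 without the 2 farthest libraries and 0.35, 0.39, 0.35, and 0.09 in the blocks. With Trib3 it was negative, at r = −0.31 (adjusted p = 0.0894 by permutation, n = 63) and rho = −0.38 (adjusted p = 0.0518 by permutation), −0.36 without the 2 farthest and −0.13, −0.15, −0.48, and −0.32 in the blocks. The remaining 4 pairs, Asns with Aldh18a1 (r = 0.31), Atf4 with Shmt2 (−0.31), Phgdh with Shmt2 (−0.33), and Psat1 with Shmt2 (−0.33), failed by rho (adjusted p from 0.129 to 0.323 by permutation). The first 2 of them and the last changed sign between blocks. Without the 2 farthest libraries, r of these 4 pairs was 0.22, −0.37, −0.10, and −0.18 in the same order.

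**Figure D5:**
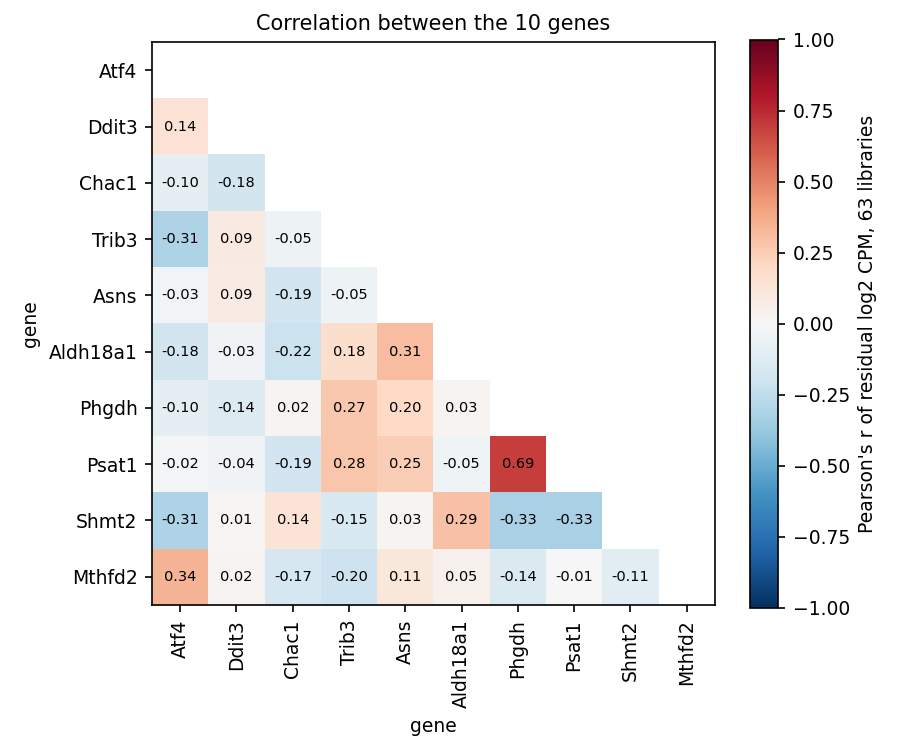
Pearson's r (color scale from −1 to 1, values printed) between each pair of the 10 genes, computed over 63 libraries on log2 CPM with group and sex removed. The pair of Psat1 and Phgdh stands at 0.69, and the other positive values reach 0.34.

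Among all genes tested, the pattern most like that of Atf4 over the 63 libraries was Gtf2h1, a subunit of the general transcription factor TFIIH (r = 0.74). Eef1a2, the muscle form of translation elongation factor 1α, was most like Shmt2 (r = 0.89). For Psat1 and Phgdh the most alike gene was the other of the 2 (r = 0.69). For Trib3 it was Anapc1 (r = 0.61), for Chac1 Ano8 (r = 0.60), for Ddit3 G0s2 (r = 0.59), for Aldh18a1 Sema4b (r = 0.58), and for Mthfd2 S100a13 (r = 0.55). These are descriptions of libraries that share depth and composition.

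Other genes of the pathway were counted from lists of known upstream regulators, partners, and targets, which contain no member. Beside the counts that follow, the share of all genes that passed in either direction was 8.26% between genotypes, 2.84% after exercise, and 8.02% with time of day, and on lists of 3 to 20 genes the counts are given as a description. Among 13 kinases, phosphatase subunits, and other regulators of eIF2α, 1 was higher in HIF1α KO mice (Oma1, 0.18, edgeR adjusted p = 0.0672) and 1 was higher after exercise (Impact, an inhibitor of the eIF2α kinase GCN2, 0.73, adjusted p = 0.00035). With time of day, Ppp1r15b was higher at ZT15 (0.15, adjusted p = 0.0138) and Eif2ak2 lower (−0.23, adjusted p = 0.0320). Among 16 bZIP partners and stress factors, 3 were higher after exercise and none lower. These were Atf3, a bZIP factor induced by stress (log2 fold change 1.48, SE 0.240, adjusted p = 3.70e-05), Eif4ebp1, the translation repressor 4E-BP1 (0.31, adjusted p = 0.00417), and Gadd45a (0.28, adjusted p = 0.0292). In HIF1α KO mice, Gadd45a was higher (0.23, adjusted p = 0.0758) and Vldlr lower (−0.16, adjusted p = 0.0468), and Vldlr was also lower at ZT15 (−0.16, adjusted p = 0.0336).

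Of 12 tested enzymes of serine and folate metabolism beside the members, none passed for genotype or exercise (edgeR). At ZT15, 1 was lower, Mthfd1l, the mitochondrial formate-producing enzyme (−0.76, adjusted p = 0.000886). Of 13 enzymes of proline and glutamate metabolism, 4 were higher in HIF1α KO mice, where 4.68% of all genes were, with Gpt2 (0.22, adjusted p = 0.00784), Aldh4a1 (0.13, adjusted p = 0.0338), and Pycr3 (0.27, adjusted p = 0.0338) first. After exercise Glul, glutamine synthetase (0.29, adjusted p = 0.00541), and Got1 (0.23, adjusted p = 0.0155) were higher. At ZT15, Glul (0.55, adjusted p = 8.61e-09) and Prodh, which begins proline breakdown (0.25, adjusted p = 0.0564), were higher, and none of the 13 was called lower. Aldh18a1, a member and not in this list, was lower, a call that depended on the setting.

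Of 15 amino acid transporters, 3 were lower in HIF1α KO mice, namely Slc7a2 (−0.26, edgeR adjusted p = 0.0169), Slc38a4 (−0.26, adjusted p = 0.0221), and Slc43a1 (−0.26, adjusted p = 0.0758). The large neutral amino acid transporter Slc7a5, a known ATF4 target, was higher after exercise (0.71, SE 0.207 and adjusted p = 0.0495). At ZT15, 3 transporters were higher and 2 lower, led by Slc43a1 (−0.60, adjusted p = 1.55e-06), Slc38a2 (0.45, adjusted p = 0.000781), and Slc7a8 (0.44, adjusted p = 0.00650). Of 20 cytoplasmic tRNA synthetases, Gars (0.14, adjusted p = 0.0155) and Kars (0.11, adjusted p = 0.0711) were higher in HIF1α KO mice, Eprs was higher after exercise (0.26, adjusted p = 7.58e-05), and none passed with time of day. Of 14 chaperones of the unfolded protein response, Hyou1 was lower in HIF1α KO mice (−0.23, adjusted p = 0.0285) and Dnajb9 higher after exercise (0.16, adjusted p = 0.0453). At ZT15, 3 were lower and 1 was higher, led by Hspa5, the chaperone BiP (−0.17, adjusted p = 0.0221), Pdia4 (−0.22, adjusted p = 0.0232), and Herpud1 (0.14, adjusted p = 0.0525). Of 5 secreted stress factors, 3 were tested and none passed in these comparisons.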

How the data were processed

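RNA from gastrocnemius of 64 mice was sequenced from stranded poly-A libraries. The deposited values are whole-number counts per gene, without normalization, which the authors obtained with featureCounts from STAR alignments to mm10. Versions, annotation release, and strand setting are not given in the sources used here. Groups and sexes came from the labels. Identifiers were matched to GENCODE M21 (55141 of 55401). In R 4.3.3, edgeR 4.0.16 was used to keep genes by filterByExpr (minimum count 10), scale by TMM, and fit robust quasi-likelihood models of group plus sex to 63 libraries. Comparisons were averaged over the remaining factors or made within them, the Benjamini-Hochberg adjustment ran over all 15241 genes, and an adjusted p under 0.1 was called. Each SE is the log2 fold change divided by the square root of F. Correlations used log2 CPM (prior count 2) with group and sex removed. Of 217 pairs of libraries within a group, the smallest chi-square divided by its degrees of freedom was 3.38, so none was counted as a repeat. The model was tested on simulated data.

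The members, lists, tests, and alternatives were chosen with earlier results of these data known. Alternatives were a threshold of 0.05, RLE size factors, no filter or at least 10 counts in every library, DESeq2 1.42.0, no sex term, all 64 libraries, removal of the 3 libraries under 5 M counts, the block of 16 mouse numbers or the mitochondrial rRNA share as a covariate, the compared groups alone, each library left out, and, added after seeing the data, a sex term in each group. Genes outside the 10 were named if among the 3 smallest p of their list past the threshold for genotype, exercise, or time of day. Some genes of the lists are not reported here, and the lists' counts and summed levels leave them out. Markers and genes named for sex were outside that rule and were chosen after their values were seen.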

Additional observations from a re-analysis of the deposited data

Results flagged for a closer look

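Each of the 10 genes was checked in each of the 8 groups for a single library far from the others, which makes 80 checks, and chance alone gives about 1 in 20. There were 5 such values, from 3 mice. Exercised HIF1α KO mouse 59 at ZT15 had 4.25 CPM of Psat1 (79 counts), against 0.831 to 1.97 CPM in the other mice of its group, and 3.87 CPM of Phgdh (72 counts), against 0.758 to 1.70 CPM. Both are enzymes of serine synthesis and both were the highest values of the 63 libraries. Exercised fl/fl mouse 50 at ZT3, with a total of 5597569 counts, had 0 CPM of Phgdh, against 1.44 to 2.61 CPM in its group, where a count of 0 allows up to 0.536 CPM. The same library had 18.2 CPM of Shmt2 (74 counts), against 6.89 to 12.1 CPM. Exercised fl/fl mouse 19 at ZT15 had 5.15 CPM of Asns (98 counts), against 1.37 to 2.86 CPM.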

How the results depend on the processing

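The alternative with the compared groups alone was run for single comparisons only. On average between genotypes, Atf4 passed in every other alternative, and in all 63 fits that left out 1 library (edgeR adjusted p from 0.0186 to 0.0678). Chac1 passed with time of day in the same sets of fits. The call of Atf4 came near the threshold in some alternatives. Its edgeR adjusted p was 0.0920 with no filter, 0.0821 with all 64 libraries, and 0.0765 without a sex term. The number of members called after exercise rose from 0 to 1 (Atf4) with at least 10 counts in every library, with DESeq2, and with the mouse-number block or the mitochondrial rRNA share as a covariate. With time of day it rose with the mouse-number block as a covariate, where Ddit3 passed as well (edgeR adjusted p = 0.0776). It fell from 2 to 1 at 0.05, without a sex term, and without the 3 libraries under 5 M counts, where Aldh18a1 was lost. It also fell to 1 with at least 10 counts in every library, where 4 members were tested. Between the sexes it was then 2 of those 4 in place of 6, and it was 4 at 0.05 (without Asns and Trib3) and 5 with no filter (without Trib3). Leaving out each library in turn gave 1 to 2 members for genotype, 0 to 1 for exercise, 1 to 3 for time of day, and 5 to 7 for sex. Among values near 0, Trib3 turned to −0.0022 in DESeq2 and −0.0521 with a sex term in each group for genotype, and to 0.0027 with that term for time of day. Leaving out libraries turned Trib3 for genotype (−0.0443 to 0.0464), Trib3 for time of day (−0.0678 to 0.0295), Mthfd2 for genotype (−0.0118 to 0.0423), and Phgdh after exercise (−0.0406 to 0.106). No paired analysis was possible because each mouse number belongs to 1 mouse and no number is shared between groups. Depth limits Trib3 most, with a median of 8 counts.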

Other observations

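The lists around the 10 genes also differed between the sexes, and the genes named here were chosen after their values were seen. Of 12 tested serine and folate enzymes, 5 were lower in males and none higher, led by Cth, which makes cysteine (−0.87, SE 0.122, edgeR adjusted p = 5.83e-08), and Shmt1, the cytoplasmic partner of Shmt2 (−0.46, SE 0.0715, adjusted p = 6.31e-07). Mthfd2 of the mitochondrial branch was higher in males (0.55) and Shmt2 did not pass (0.08). Of 20 cytoplasmic tRNA synthetases, 6 were higher and none lower, with Aars at 0.20 (adjusted p = 0.00538) as the largest of them. Of 16 bZIP partners and stress factors, 6 were higher and 3 lower, with Ddit4, a repressor of mTORC1, higher by 1.43 (SE 0.371, adjusted p = 0.00333) and Stc2, a secreted glycoprotein, lower by 1.85 on the log2 scale (−1.85, SE 0.133, adjusted p = 2.61e-18). Of 15 transporters, 2 were higher, Slc38a4 (0.86, adjusted p = 2.43e-15) and Slc38a2 (0.67, adjusted p = 1.24e-07), and 4 lower. Of 13 proline and glutamate enzymes 2 were higher and 5 lower, of 13 regulators of eIF2α 1 was lower, and of 14 chaperones and 3 secreted factors none passed. The share of all genes that passed between the sexes was 25.1%, and the part of the adipocyte, nerve, and blood markers that differed as well was not tested.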
